A study of Homo sapiens with 12 samples.

Results

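The E2F transcription factor genes E2F1 to E2F8 and the retinoblastoma pocket protein genes RB1 and RBL1 were followed in 22Rv1 cells, an established human prostate carcinoma line, exposed to a small-molecule compound, labelled as an inhibitor and named in the title of the series as acting on the transcription factor ONECUT2. Every probe set that the platform annotation assigns to 1 of these 10 symbols was taken, which gave 21 of the 54675 probe sets and 10 of the 19775 named genes, and all 10 genes had a probe set bright enough to test. The study measured Affymetrix U133 Plus 2.0 arrays, 3 per group: vehicle, and the inhibitor for 4 h, 6 h and 16 h. All groups were grown in the same serum-containing RPMI-1640 medium, no genetic change is labelled in any group, and the vehicle arrays carry no time. An element that is common to the titles of the vehicle, 4 h and 6 h arrays, and is not explained, is missing from the 16 h titles. What it stands for, the longer time in culture and the compound cannot be told apart. Nothing in the labels says that the 3 arrays of a group came from different cultures, and the p-values below measure only how far these arrays spread, possibly for technical reasons.

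E2F proteins bind DNA at the promoters of genes needed for DNA replication, E2F1 to E2F6 as dimers with a DP partner. E2F1, E2F2 and E2F3 are the classical activators, E2F4 and E2F5 mostly repress in complexes with pocket proteins, and E2F6, E2F7 and E2F8 repress without pocket proteins. RB1 and RBL1 (p107) hold E2F proteins inactive in G1 until cyclin-dependent kinases phosphorylate them, and loss of RB1 function is known in advanced prostate cancer.

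Values are log2 signals as deposited, and a change is the difference of group means with its standard error (SE) from limma. "Rose", "fell" and "changed" are used where the Benjamini-Hochberg adjusted p over the 12635 tested genes was below 0.05. Each gene is given by its brightest probe set, the one with the highest mean over the 12 arrays, and signals are compared only within a probe set. Across the tested genes r was 0.9964 to 0.9982 between arrays of the same group and 0.9817 to 0.9873 between 16 h and vehicle arrays. Some measures of RNA moved with the 16 h group. The ACTB control difference between 3' and 5' probe sets was 4.09 ± 0.09 at 16 h and 2.80 ± 0.07 on vehicle arrays (SD, n = 3), and the 18S ribosomal RNA control was 11.06 ± 0.10 at 16 h and 9.62 ± 0.29 on vehicle arrays. The same difference for GAPDH was -0.43 ± 0.04 at 16 h and -0.46 ± 0.02 on vehicle arrays. Their part in the changes below was not tested. Of the prostate epithelial markers, 6 of 6 with a named probe set stood above the unspiked bacterial controls on every array, with a summed log2 signal of 48.03 to 49.29 at 16 h and 50.47 to 50.87 on vehicle arrays. Among them HOXB13 and KRT19 fell at 16 h (log2 changes -1.06 and -0.99), KRT18 rose (0.20), and KRT8, EPCAM and KLK3 did not pass. Endothelial markers VWF, CDH5 and KDR were at the level of the unspiked controls on all arrays and PECAM1 was dim, with a summed signal of 6.33 to 6.43 at 16 h and 6.17 to 6.97 on vehicle arrays. Of the 5 fibroblast markers COL1A1 and LUM rose at 16 h while DCN and COL3A1 fell and COL1A2 stayed at control level, with a summed signal of 17.41 to 18.22 at 16 h and 14.94 to 15.95 on vehicle arrays. Of the 5 leukocyte markers 3 had a named probe set, none was bright enough to test, and their sum was 5.12 to 5.98 at 16 h and 5.76 to 6.17 on vehicle arrays.

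At 16 h, 6 of the 10 genes fell (E2F1, E2F2, E2F3, E2F4, E2F7 and E2F8), 1 rose (E2F6), and E2F5, RB1 and RBL1 did not pass the test. Among all tested genes 16.8% fell and 26% rose in the same comparison. The median log2 change of the 10 genes was -0.43, beside 0.05 for all tested genes. The arrays of the 16 h and vehicle groups did not overlap for 8 of the 10, against 51.5% of all tested genes.

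**Figure D1:**
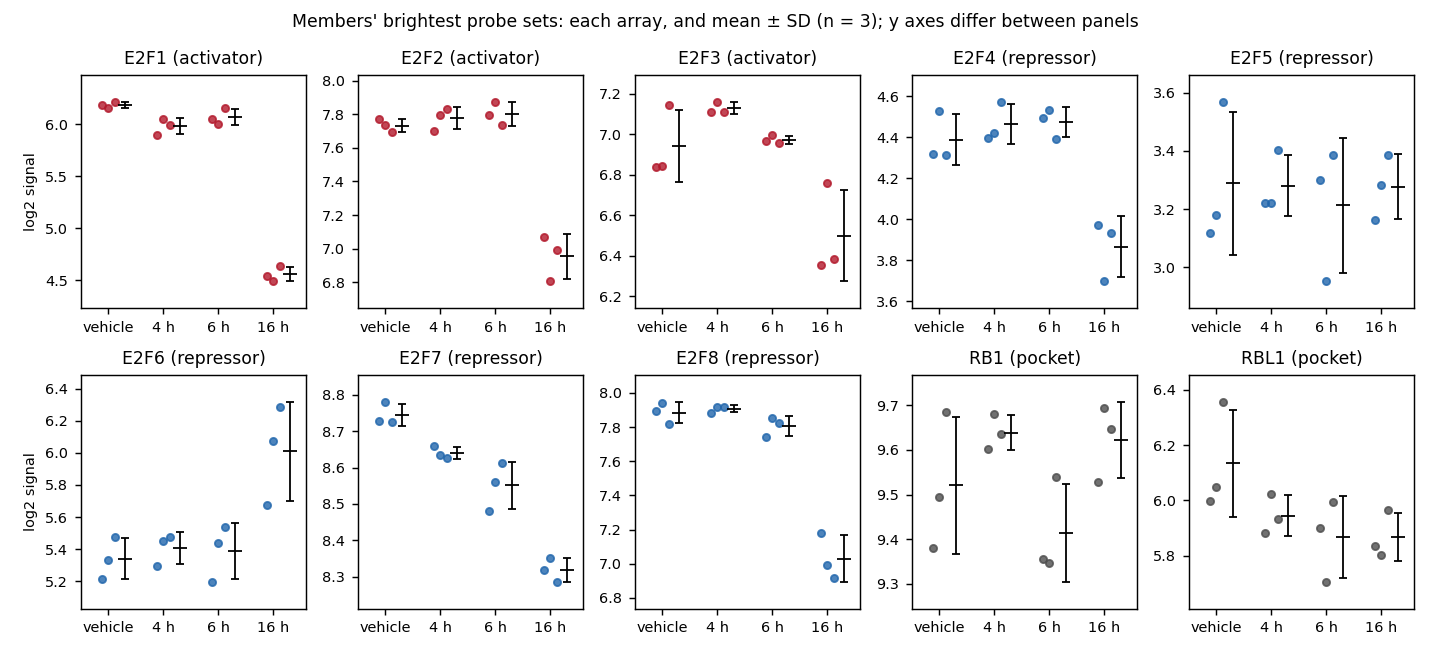
Log2 signal of the brightest probe set of each gene (y axis, a different range in each panel) on every array of the vehicle, 4 h, 6 h and 16 h groups (x axis), as points, with the mean ± SD of 3 arrays in black; red marks activator E2Fs, blue repressor E2Fs and grey pocket proteins. E2F1, E2F2, E2F3, E2F4, E2F7 and E2F8 are low at 16 h, E2F6 is high, and RB1 and E2F5 show no such separation. RBL1 at 16 h lies below the vehicle arrays but overlaps with 4 h and 6 h.

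E2F1, an activator that drives entry into S phase and can also induce apoptosis, fell most. On its brightest probe set, 2028_s_at, the log2 signals were 6.19, 6.16 and 6.22 on the vehicle arrays, 5.90, 6.05 and 6.00 at 4 h, 6.05, 6.01 and 6.15 at 6 h, and 4.54, 4.496 and 4.63 at 16 h. All 16 h arrays lay far below every other array, while 4 h and 6 h overlapped with each other. At 16 h E2F1 was 3.09-fold lower than on vehicle arrays, a log2 change of -1.63 with an SE of 0.07 (adjusted p = 1.03e-08). The dimmer E2F1 probe set, 204947_at, gave 3.97 ± 0.13 at 16 h and 5.07 ± 0.13 on vehicle arrays (SD, n = 3), a 2.15-fold fall (adjusted p = 5.44e-05 over 27307 tested probe sets). Both probe sets thus fell, with different sizes.

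E2F2, the second activator, gave 7.77, 7.73 and 7.69 on vehicle arrays, 7.70, 7.80 and 7.83 at 4 h, 7.79, 7.88 and 7.73 at 6 h, and 7.07, 6.81 and 6.99 at 16 h. Only the 16 h arrays stood apart, and the fall was 1.71-fold (log2 change -0.78 ± 0.08 SE, adjusted p = 1.06e-05). Its probe set 207042_at, close to the low end of the scale, fell 1.65-fold (adjusted p = 0.0059). E2F3, the third activator, encoded by a gene with alternative start sites, gave 6.84, 6.84 and 7.15 on vehicle arrays, 7.11, 7.16 and 7.11 at 4 h, 6.97, 6.996 and 6.96 at 6 h, and 6.35, 6.76 and 6.38 at 16 h. Replicate 3 of vehicle and replicate 2 of 16 h were both higher than their partners, yet the groups did not overlap. E2F3 fell 1.36-fold (log2 change -0.44 ± 0.11 SE, adjusted p = 0.0064), and its probe set 203692_s_at fell 1.33-fold (adjusted p = 0.00202). The 3 activators therefore fell on all 6 of their tested probe sets, by 3.09-fold to 1.33-fold.

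The bases just upstream of the activator genes are shown because E2F genes are themselves known targets of E2F proteins. The sequences are RefSeq promoter windows of GRCh38.p14, given 5′ to 3′ on the strand of the gene, and each covers the 100 bases before the annotated start. Capitals mark a match, on either strand, to TTTCCCGC, TTTCGCGC, TTTGCCGC or TTTGGCGC, spelled-out forms of the E2F consensus; none of the matches in these windows overlap each other. E2F1 (chr20:33686386-33686485, minus strand) holds 2 matches, starting 33 and 20 bases before the start, E2F2 (chr1:23531234-23531333, minus strand) holds 1 at 42 bases and the upstream window of E2F3 (chr6:20401779-20401878, plus strand) holds 1 at 53 bases.
E2F1: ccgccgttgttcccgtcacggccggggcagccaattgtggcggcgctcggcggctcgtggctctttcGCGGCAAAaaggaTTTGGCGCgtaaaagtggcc
E2F2: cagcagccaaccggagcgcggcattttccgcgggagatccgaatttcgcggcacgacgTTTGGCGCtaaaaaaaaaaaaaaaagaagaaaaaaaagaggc
E2F3: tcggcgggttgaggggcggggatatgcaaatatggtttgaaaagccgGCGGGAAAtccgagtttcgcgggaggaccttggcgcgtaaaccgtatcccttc

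Over the 250 bases before the start, 979 of all 35116 promoter windows (2.79%) hold at least 1 such match. E2F3 has a further RefSeq window downstream, with no match. A match is a description of the letters and not evidence of binding.

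The repressor E2Fs did not move as a block: 3 of 5 fell, 1 rose and 1 did not pass. E2F8, an atypical factor that represses E2F targets without a DP partner, fell most among them. Its signals were 7.89, 7.94 and 7.82 on vehicle arrays, 7.88, 7.92 and 7.92 at 4 h, 7.74, 7.86 and 7.83 at 6 h, and 7.18, 6.99 and 6.92 at 16 h. The 16 h arrays lay below all others, with a 1.81-fold fall (log2 change -0.85 ± 0.07 SE, adjusted p = 4.04e-06).

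E2F7, the other atypical factor, gave 8.73, 8.78 and 8.73 on vehicle arrays, 8.66, 8.63 and 8.63 at 4 h, 8.48, 8.56 and 8.61 at 6 h, and 8.32, 8.35 and 8.29 at 16 h. Its groups did not overlap at any step and were lower at each later time, a pattern noticed after the values were seen. It was the only one of the 10 genes with this order, which 4 of the 12635 tested genes (0.0317%) share, the others being ARPC3, COLEC12 and UTP20. The early steps did not pass the test. E2F7 differed from vehicle by -0.10 ± 0.06 SE at 4 h (adjusted p = 0.541) and by -0.19 ± 0.06 at 6 h (adjusted p = 0.344, unadjusted p = 0.00509), and fell at 16 h by 1.34-fold (log2 change -0.43 ± 0.06, adjusted p = 0.000102). The 16 h level was also below that at 6 h (log2 difference -0.23 ± 0.06 SE, adjusted p = 0.00587).

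E2F4, the main E2F of quiescent cells, gave 4.32, 4.53 and 4.31 on vehicle arrays, 4.40, 4.42 and 4.57 at 4 h, 4.50, 4.53 and 4.39 at 6 h, and 3.97, 3.70 and 3.93 at 16 h. It fell 1.44-fold at 16 h (log2 change -0.52 ± 0.09 SE, adjusted p = 0.000756). Its other probe set, 202248_at, overlapped between the groups and did not pass, with 3.61 ± 0.36 at 16 h and 3.84 ± 0.13 on vehicle arrays (SD, n = 3, log2 change -0.23, adjusted p = 0.244). The fall of E2F4 thus rests on the brighter probe set, of the _r_at class.

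E2F6, which represses as part of a Polycomb-related complex and lacks the pocket protein binding region, was the only one of the 10 genes to rise. Its signals were 5.21, 5.33 and 5.47 on vehicle arrays, 5.29, 5.45 and 5.47 at 4 h, 5.20, 5.44 and 5.53 at 6 h, and 5.68, 6.07 and 6.28 at 16 h. All 16 h arrays were above every other array, although they spread over 0.61 log2 units. The rise was 1.59-fold (log2 change 0.67 ± 0.14 SE, adjusted p = 0.00238), and it rests on the only E2F6 probe set. E2F5, a partner of RBL2 in repression, gave 3.16, 3.28 and 3.39 at 16 h and 3.12, 3.18 and 3.57 on vehicle arrays, with full overlap. Its 16 h difference was -0.01, with a 95% confidence interval of -0.30 to 0.28 (adjusted p = 0.956), so changes up to about that size were not detectable on this dim probe set.

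The same 100 bases are shown for the repressor genes, as a contrast to the activators. None of the E2F4 (chr16:67192055-67192154, plus strand), E2F6 (chr2:11466162-11466261, minus strand) and E2F7 (chr12:77065570-77065669, minus strand) windows holds a match, here or over 250 bases, which says only that these letters are not in this window. E2F5 and E2F8 have no entry in the promoter table.
E2F4: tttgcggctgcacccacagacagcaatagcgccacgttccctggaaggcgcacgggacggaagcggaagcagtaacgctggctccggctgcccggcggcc
E2F6: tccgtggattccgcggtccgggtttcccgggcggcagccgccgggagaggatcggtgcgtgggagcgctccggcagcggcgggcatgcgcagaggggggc
E2F7: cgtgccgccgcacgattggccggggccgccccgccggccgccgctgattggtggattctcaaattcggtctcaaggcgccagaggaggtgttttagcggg

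Neither pocket protein gene passed the test at 16 h. RB1, the retinoblastoma tumour suppressor, gave 9.53, 9.69 and 9.65 at 16 h and 9.38, 9.49 and 9.69 on vehicle arrays, with overlapping groups. Its 16 h difference was 0.10 ± 0.09 SE, with a 95% confidence interval of -0.09 to 0.29 (adjusted p = 0.367), which leaves out a change of the size seen for E2F1, E2F2 or E2F8. A dim RB1 probe set, 211540_s_at, gave 2.02 ± 0.12 at 16 h and 2.36 ± 0.21 on vehicle arrays (SD, n = 3), close to the unspiked controls, and was lower by 0.34 (adjusted p = 0.0484). The RB1 probe sets thus differed in direction, and only the dim one passed.

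RBL1, which represses mainly with E2F4, gave 5.84, 5.80 and 5.96 at 16 h and 6.00, 6.05 and 6.36 on vehicle arrays. The groups did not overlap, but vehicle replicate 3 stood above the others. The difference was -0.27 ± 0.10 SE (95% confidence interval -0.49 to -0.04, adjusted p = 0.0561), just outside the threshold. It passed under quantile normalisation (adjusted p = 0.018), with the 75th percentile filter (0.0377) and without vehicle replicate 1 (0.0362), and without vehicle replicate 3 it shrank to -0.15 (0.216). With the mean of all RBL1 probe sets the difference was only -0.07 (0.493). In 12 of the 16 alternatives RBL1 stayed outside the threshold. The RBL1 promoter (chr20:37095998-37096097, minus strand) is shown as the pocket protein gene whose window holds E2F motif letters, 2 matches starting 26 and 16 bases before the start. The RB1 window in the table lies inside the gene, away from its annotated start, and is not shown.
RBL1: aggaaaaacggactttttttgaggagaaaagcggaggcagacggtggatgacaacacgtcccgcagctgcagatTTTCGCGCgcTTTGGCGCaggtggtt

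The 3 activators fell and have matches, RBL1 has 2 matches and did not pass the test, and E2F4 and E2F7 fell and have none. E2F6 has no match and rose. E2F5 and E2F8 have no window, and that of RB1 lies inside the gene. Whether the letters go with a fall was not tested.

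**Figure D2:**
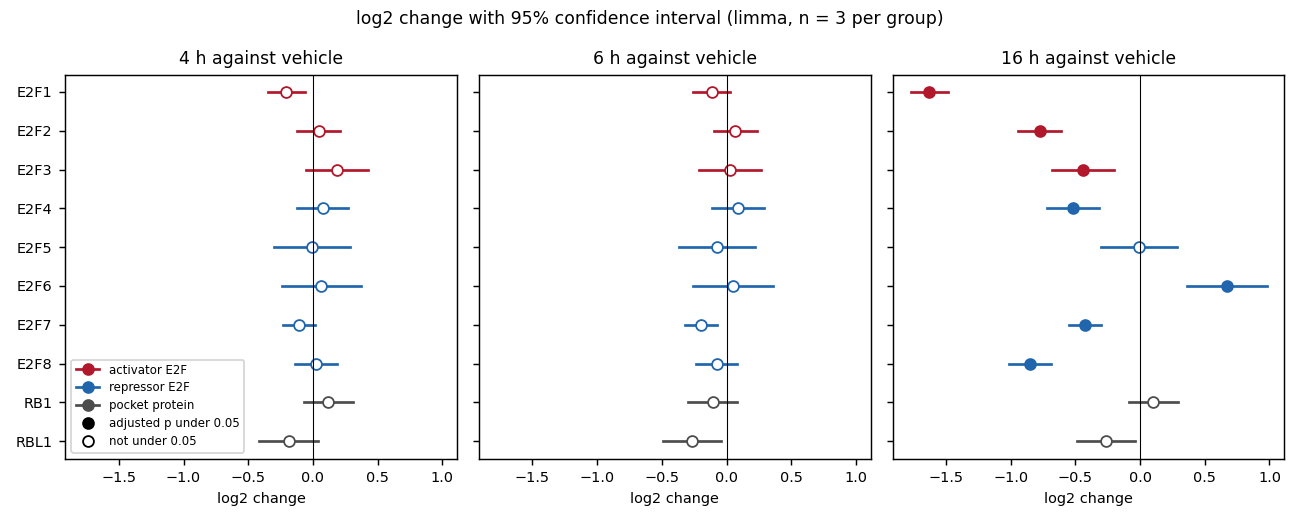
Log2 change against vehicle at 4 h, 6 h and 16 h (x axes, 3 panels) for the 10 genes (y axis), as points with 95% confidence intervals from limma, n = 3 per group; filled points have an adjusted p under 0.05. No point is filled at 4 h or 6 h, and 7 are filled at 16 h, of which E2F6 alone lies to the right of 0.

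Activators and repressors were compared as classes by the mean of their brightest probe sets on each array. Because signals of different probe sets have no common scale, only the change of these means is meaningful, and no test was made over classes whose members were known. The activator mean was 5.99, 6.02 and 6.00 at 16 h and 6.93, 6.91 and 7.02 on vehicle arrays, a mean log2 change over the 3 genes of -0.95. The repressor mean was 5.66, 5.68 and 5.76 at 16 h and 5.86, 5.95 and 5.98 on vehicle arrays, a mean log2 change over the 5 genes of -0.23. Neither class overlapped between the groups. The activator minus repressor difference was 0.30 ± 0.05 at 16 h and 1.02 ± 0.06 on vehicle arrays (SD, n = 3), a change of -0.72. At 4 h it was 1.02 ± 0.05 and at 6 h 1.06 ± 0.05, both means within the range of the vehicle arrays. The single 6 h arrays gave 1.09, 1.09 and 0.998, and the vehicle arrays 1.08, 0.96 and 1.04.

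E2F1 and E2F6 lay at the opposite ends of the range, while E2F2 (-0.78) changed about as much as the repressor E2F8 (-0.85), and E2F3 (-0.44) about as much as E2F7 (-0.43) and E2F4 (-0.52). The size of the class difference depended on the probe sets used. It was -0.63 with the mean of all probe sets of a gene and -0.55 when probe sets of the _s_at and _x_at classes were passed over where a gene had another, which replaces the E2F1 probe set by its dimmer one.

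**Figure D3:**
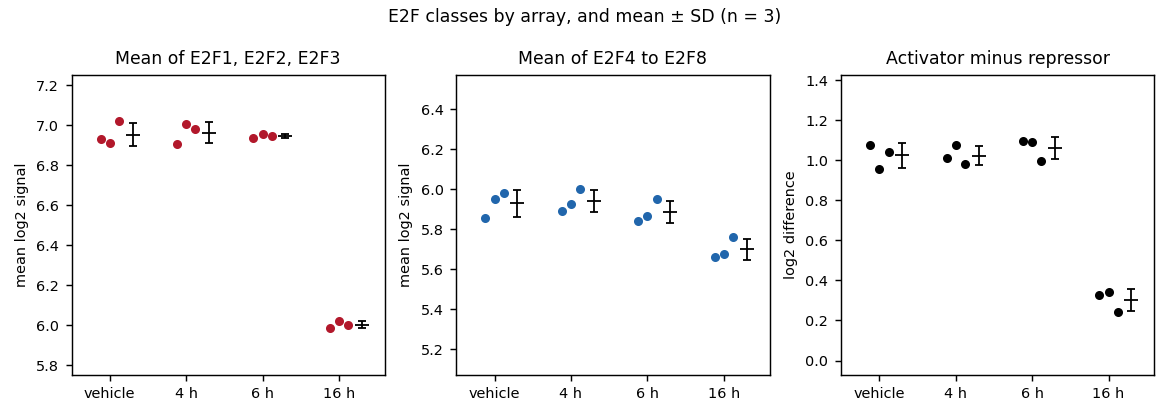
Mean log2 signal of E2F1, E2F2 and E2F3 (left), of E2F4 to E2F8 (middle), and their difference (right), for each array of the 4 groups, with the mean ± SD of 3 arrays in black; every y axis spans 1.5 log2 units. The activator mean at 16 h is 6.00 and the repressor mean 5.70, and the difference drops to 0.30 at 16 h, against 1.02 on vehicle arrays.

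At 4 h and 6 h none of the 10 genes changed by limma. Over all tested genes 0.459% changed at 4 h and 0.0317% at 6 h. At an unadjusted p below 0.05 there was 1 of the 10 at 4 h, E2F1, and 2 at 6 h, E2F7 and RBL1. Of all 12635 tested genes, 1366 had such a p at 4 h and 1039 at 6 h. The E2F1 difference at 4 h was -0.20 ± 0.07 SE (adjusted p = 0.282), with no overlap between the groups. The dimmer E2F1 probe set, 204947_at, did not share it, with -0.02 at 4 h and overlapping groups (adjusted p = 0.972 over probe sets). The RBL1 difference at 6 h was -0.27 ± 0.10 SE (adjusted p = 0.515). Non-overlapping arrays were found for 2 of the 10 genes at 4 h, against 18.3% of all tested genes, and for 3 of the 10 at 6 h, against 14.4%, all of them lower than vehicle.

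Between the treatment times, 0 of the 10 genes differed at 6 h against 4 h by limma, where 0.095% of all genes did. Only 1 of the 10, RB1, had an unadjusted p below 0.05, beside 1187 of all 12635 tested genes. Arrays did not overlap for 4 of the 10, namely E2F3, E2F7, E2F8 and RB1, all lower at 6 h, against 19.4% of all tested genes. At 16 h against 6 h, 6 genes fell and 1 rose, where 17.6% of all genes fell and 25.1% rose. At 16 h against 4 h, 6 fell and 1 rose as well, where 16.1% of all genes fell and 24.8% rose. In both comparisons the genes were the 7 that changed against vehicle. These comparisons share the 16 h arrays, so they are not independent. The 16 h level was thus the lowest for E2F1, E2F2, E2F3, E2F4, E2F7 and E2F8 and the highest for E2F6, and no difference among vehicle, 4 h and 6 h passed the test for any of the 10 genes.

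The probe sets were also tested on their own. Of the 21, 15 were bright enough, and at 16 h 10 fell and 1 rose, where 16.7% of all 27307 tested probe sets fell and 23% rose. The 4 that did not pass were the brightest probe sets of RB1, RBL1 and E2F5 and the dimmer one of E2F4. The 6 untested probe sets had means of 1.30 to 2.09, near the unspiked controls, whose highest value per array averaged 1.94 at 16 h and 2.14 on vehicle arrays. Among them 235582_at of E2F2 gave 1.74 ± 0.14 at 16 h and 2.17 ± 0.11 on vehicle arrays, and 241725_at of E2F7 gave 1.76 ± 0.11 at 16 h and 2.09 ± 0.09 on vehicle arrays (SD, n = 3). At these levels a difference carries little information.

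**Figure D4:**
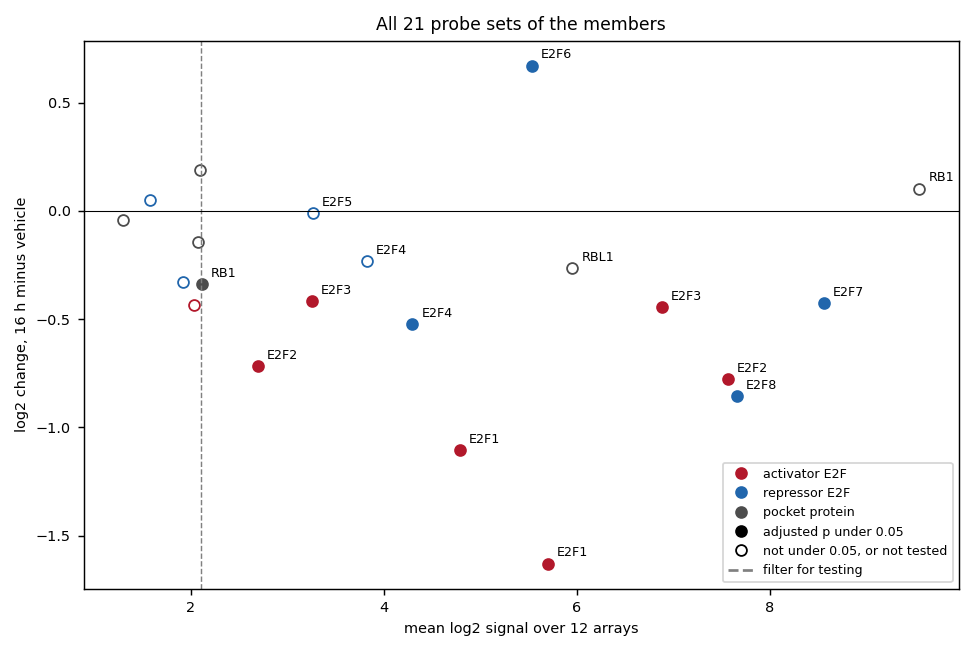
Log2 change at 16 h against vehicle (y axis) and mean log2 signal over 12 arrays (x axis) for all 21 probe sets; filled points passed the test over 27307 probe sets, open points did not pass or lay left of the dashed filter line and were not tested. Both E2F1 probe sets lie lowest, and E2F6 is the only filled point above 0.

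Other genes of the pathway were taken from lists, described by counts, to be read against the 16.8% of all tested genes that fell and the 26% that rose at 16 h. Among the DP partners and the third pocket protein, 2 of 3 tested genes fell. TFDP1 and TFDP2, which encode the dimer partners of E2F1 to E2F6, fell 1.505-fold and 1.41-fold (log2 changes -0.59 ± 0.07 and -0.50 ± 0.09 SE, adjusted p = 3.89e-05 and 0.000816). RBL2, the p130 pocket protein gene, was at 8.13 ± 0.11 at 16 h and 8.19 ± 0.11 on vehicle arrays (SD, n = 3, adjusted p = 0.558). Of 7 genes of the MuvB core and the factors that join it, 2 fell and 1 rose. FOXM1, a transcription factor of G2 and mitosis, fell 1.81-fold (adjusted p = 3.51e-06), MYBL2 fell 1.35-fold (adjusted p = 0.0186), and the core subunit gene LIN37 rose 1.44-fold (adjusted p = 0.00489).

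Textbook E2F targets of G1/S and replication were the most uniform list. Of 36 tested genes 32 fell and 1 rose at 16 h, where 16.8% of all genes fell and 26% rose, with a median log2 change of -0.44, beside 0.05 for all tested genes. The largest falls were ASF1B, a histone chaperone gene, at 2.32-fold (adjusted p = 9.92e-07), the helicase subunit gene MCM7 at 2.08-fold, UHRF1, which guides maintenance DNA methylation, at 1.97-fold, and GINS2, a replication helicase subunit gene, at 1.93-fold. CDT1, a licensing factor, was the riser (1.17-fold, adjusted p = 0.0499). Its call was lost under median centring, where 32 fell and 0 rose. It was also lost without any single array of the 2 groups other than 16 h replicate 1. CDT1 also no longer rose without the signal filter, with array weights or with only the 2 groups compared. Nor did it rise with the mean of probe sets or when _s_at and _x_at probe sets were passed over. MCM5, CDC6 and CHEK1 did not pass, with log2 differences of -0.01, -0.12 and -0.22. These genes were drawn up with earlier results of the same arrays known and so do not add independent support. Fewer cells in S phase and less transcript per cell cannot be told apart in such bulk samples. At 4 h and 6 h 0 of the 36 changed by limma, with 4 and 2 at an unadjusted p below 0.05. Of all 12635 tested genes, 1366 and 1039 had such a p. Of the 34 listed targets with a promoter window, 12 (35.3%) hold the E2F motif letters within 250 bases of at least 1 start. Of all windows, counted singly, 2.79% do. The first share counts genes and the second windows, and the genes were listed as known E2F targets, so the shares are not like for like.

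**Figure D5:**
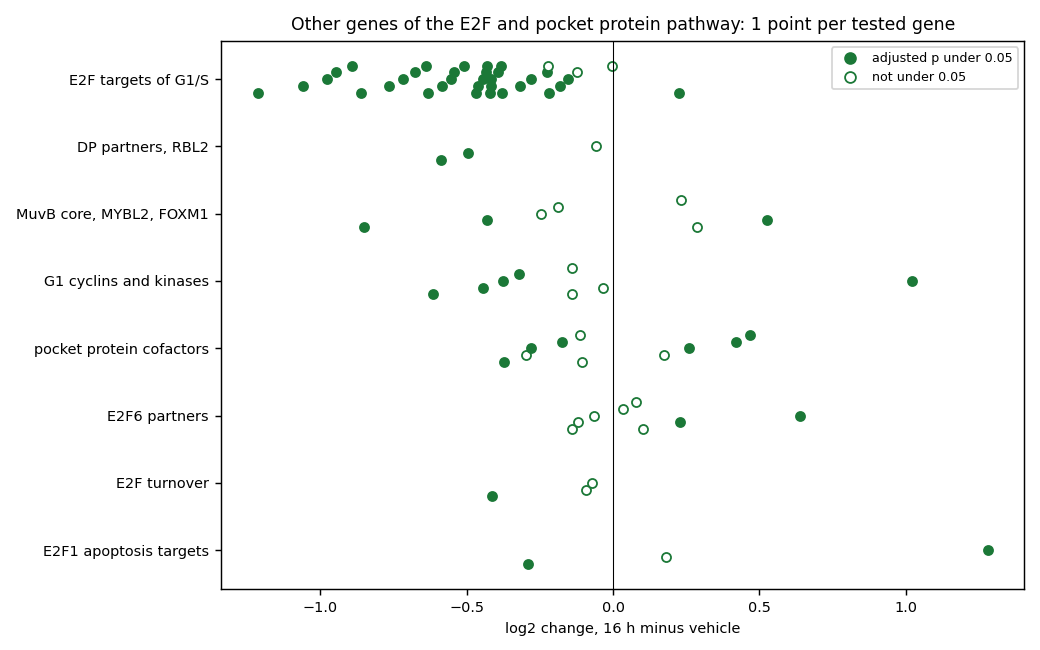
Log2 change at 16 h against vehicle (x axis) of each tested gene in 8 lists of the pathway (y axis; points are offset vertically for legibility), filled where the adjusted p was under 0.05. Of 36 E2F targets 32 are filled to the left of 0, while the other lists hold points on both sides or few points.

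Genes that act on or with the pocket proteins, or upstream of them, moved both ways. Of 8 tested genes, namely G1 cyclin and kinase genes and CDC25A, 4 fell and 1 rose, beside 16.8% and 26% of all genes. CCNE2, a cyclin of the G1 to S transition and itself an E2F target, fell 1.53-fold (adjusted p = 8.97e-06), and CCND3 and CDK4, a cyclin and a kinase that phosphorylate RB1, fell 1.36-fold and 1.30-fold (adjusted p = 0.00176 and 0.000209). CDK6, the kinase related to CDK4, rose 2.03-fold, with 6.77 ± 0.24 at 16 h and 5.75 ± 0.16 on vehicle arrays (SD, n = 3, adjusted p = 2.16e-05). Of 10 chromatin cofactors of pocket proteins 3 rose and 3 fell, and the share that rose is near the 26% of all genes. KDM5A, a histone demethylase gene whose product binds RB1, and ARID4B, a gene of a Sin3 histone deacetylase complex, rose 1.38-fold and 1.34-fold, while the DNA methyltransferase gene DNMT1 fell 1.30-fold and the histone chaperone gene RBBP7 fell 1.22-fold.

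Of 8 tested partners of E2F6 in its Polycomb complex, 2 rose and 0 fell, and the share that rose is near the 26% of all genes. RYBP, a Polycomb adaptor, rose 1.56-fold (8.52 ± 0.09 at 16 h and 7.88 ± 0.05 on vehicle arrays, SD, n = 3, adjusted p = 7.71e-05), and MAX, the dimer partner of MGA and MYC, rose 1.17-fold (adjusted p = 0.0086). The median change of these partners was 0.06, close to that of all genes. Among ligase subunits that act on E2F proteins, SKP2 fell 1.33-fold (adjusted p = 0.000387), and CCNF and FZR1 did not pass (log2 differences -0.09 and -0.07). Of 3 tested apoptosis genes known as E2F1 targets, PMAIP1 (NOXA) rose 2.43-fold (adjusted p = 2.53e-05), APAF1 fell 1.22-fold (adjusted p = 0.0333) and BCL2L11 did not pass (0.18, adjusted p = 0.168).

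The genes whose signal followed a member most closely over the 12 arrays were named by Pearson's r, as a description. For E2F1 they were UHRF1 (r = 0.9959), SLC45A3, a prostate solute carrier gene (0.9949), and MDK, a growth factor gene (0.9946), which fell at 16 h by 0.98, 2.89 and 1.19 on the log2 scale. For E2F7 they were COLEC12 (0.9675), PTCHD1 (0.9586) and TKFC (0.9574). For RB1 they were N4BP2 (0.9612), ATP9B (0.961) and GTF2H3 (0.9538), none of which changed at 16 h. For E2F1 the 12 arrays fall into the 16 h arrays and the rest, so its r values largely describe that step. Among the 10 genes themselves, the 12 arrays gave r = 0.9708 between E2F2 and E2F8, 0.9697 between E2F2 and E2F4, 0.9666 between E2F1 and E2F2 and 0.9648 between E2F1 and E2F8. E2F6 gave r = -0.896 with E2F8, -0.8673 with E2F2 and -0.8418 with E2F1. For each of these genes the 16 h arrays stand apart from the rest, so these r values too largely describe that step.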

How the data were processed

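Total RNA from 22Rv1 cells was labelled by 3' in vitro transcription and hybridised to Affymetrix U133 Plus 2.0 arrays, per the labels' protocols. The deposited table gives 54675 probe sets on 12 arrays as log2 signals, made by the authors with GCRMA (background by probe sequence, normalisation between arrays, summary over probes), per the submitters' processing notes, which give no version. Precision is limited by the number of arrays, and such normalisation would hide a change shared by most genes. No other per-sample columns were present.

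Symbols came from the platform annotation, updated by Entrez identifier to RefSeq (GRCh38.p14): 41097 probe sets had 1 symbol, 1801 several and 11777 were unlisted. After 62 control probe sets were removed, the brightest probe set of each gene was tested if its mean reached 2.11 (the median of probe set means), which left 12635 genes. All 12 arrays entered 1 limma 3.58.1 model in R 4.3.3 (lmFit, eBayes, 8 residual and 3.69 prior degrees of freedom) with 6 two-sided comparisons, Benjamini-Hochberg adjustment over all genes. A second fit covered 27307 probe sets. The fit was tested on simulated data for 16 h against vehicle over 12635 genes. It recovered 65.6% of changes of 0.5 and 97.2% of changes of 1 on the log2 scale, and 5.5% of its calls were false. Far fewer genes were changed in the simulation than the 5405 called at 16 h, so recovery in the real comparison may differ.

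The 10 genes, the lists and the naming rule were chosen with earlier results of these data known. The rule names all 10, up to 4 changed genes with the largest changes of each other list (all, where under 6 were tested), and the 3 genes most correlated with E2F1, E2F7 and RB1. CDT1, MCM5, CDC6, CHEK1 and the genes that share the stepwise order of E2F7 were named after their values were seen, as were the E2F3, E2F4 and E2F6 promoters. No protein sequences were used here. Replicate numbers were checked as pairs: deviations of same-numbered arrays correlated at -0.0045 to 0.2352, above 0.1 in 5 of 18 pairs, so they were not treated as pairs. Alternatives covered normalisation, filter, probe set choice, variance prior, array weights, samples in the fit, a replicate block and leaving out each array.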

Additional observations from a re-analysis of the deposited data

Results flagged for a closer look

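The change of 7 genes differed between treatment times, by the limma test of the difference itself with Benjamini-Hochberg adjustment. At 16 h against 6 h the log2 differences were -1.51 for E2F1 (adjusted p = 2.5e-08), -0.85 for E2F2 (6.05e-06), -0.47 for E2F3 (0.00449), -0.61 for E2F4 (0.000272), -0.23 for E2F7 (0.00587) and -0.78 for E2F8 (9.14e-06), and 0.62 for E2F6 (0.00393). At 16 h against 4 h they were -1.43 for E2F1 (4.45e-08), -0.82 for E2F2 (8.52e-06), -0.63 for E2F3 (0.00082), -0.60 for E2F4 (0.000347), -0.32 for E2F7 (0.000861) and -0.88 for E2F8 (4.1e-06), and 0.60 for E2F6 (0.00496). The 16 h arrays differ from the 4 h and 6 h arrays in a title element as well as in time, and the part of that element cannot be told apart. Groups of 3 arrays are too small for an outlier test.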

How the results depend on the processing

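At 16 h against vehicle the count of changed genes was 7 or 8 under all 16 alternatives, with 6 or 7 falls and 1 rise; where it was 8, the added gene was RBL1. Of the 36 E2F targets 29 to 35 changed. With the replicate number as a block, 8 of the 10 changed (7 fell), RBL1 passing at adjusted p = 0.0309, and at 16 h against 6 h 2 rose, so 8 changed there, as they did without 6 h replicate 3, with array weights and with the trended and robust prior; the block left 0 changed at 4 h, at 6 h and at 6 h against 4 h. With the 75th percentile filter E2F4 and E2F5 were not tested, and RBL1 was among the 7 of 8 that changed. The activator minus repressor change was -0.6302 with the mean of probe sets and -0.5467 when _s_at and _x_at probe sets were passed over, where the dimmer probe set stands for E2F1; leaving out arrays gave -0.7546 to -0.6903. With a trended and robust prior 1 E2F target rose at 4 h, against 0; the cause was not tested. The uncalled E2F5 difference (-0.0964 to 0.1289 over single arrays left out) turned positive with the mean of probe sets (0.0195), without vehicle replicate 3 (0.1289) and without 16 h replicate 1 (0.0453), and that of RB1 turned negative with the mean of probe sets (-0.1185), which adds the dim probe set. Leaving out arrays kept the direction of each of the 7 called genes. The changes ranged from -1.67 to -1.60 for E2F1, -0.83 to -0.70 for E2F2 and -0.57 to -0.34 for E2F3. They ranged from -0.57 to -0.44 for E2F4, -0.44 to -0.41 for E2F7, -0.93 to -0.80 for E2F8 and 0.53 to 0.84 for E2F6. Genes near the level of unspiked controls, E2F5 above all, are limited by signal.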

Other observations

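E2F6 had its lowest value on the replicate 1 array and its highest on the replicate 3 array in each of the 4 groups, from 5.68 to 6.28 at 16 h and from 5.21 to 5.47 on vehicle arrays. Vehicle replicate 3 gave the highest vehicle value for E2F1, E2F3, E2F5, E2F6, RB1 and RBL1, at 6.22, 7.15, 3.57, 5.47, 9.69 and 6.36. Without that array the 16 h differences included -0.34 for E2F3 (adjusted p = 0.0272), 0.74 for E2F6 (0.004), 0.19 for RB1 (0.104) and -0.15 for RBL1 (0.216).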
